A study of Mus musculus with 12 samples.

Results

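A set of 8 genes of cholesterol synthesis and its feedback control were followed across mouse kidneys injured with cisplatin and then given extracellular vesicles. They were taken by symbol from the deposited table: Hmgcs1, Idi1, Fdps, Fdft1, Sqle, Lss, Cyp51 and Insig1, which are 8 of its 45777 genes. All 8 passed the filter on low counts that left 18730 genes for testing. None of these 8 genes takes up cholesterol, so genes of uptake are described separately from a longer list. Of the 8 genes, 1 passed the edgeR test in any of the 6 comparisons between groups: Hmgcs1 was lower in kidneys given cisplatin and saline than in normal kidneys.

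Cells make cholesterol from acetyl-CoA through the mevalonate pathway and the sterol branch that follows squalene. Its genes are switched on by the transcription factor SREBP2, which SCAP carries out of the endoplasmic reticulum when sterols are low and which INSIG proteins hold back when sterols are high. In the kidney, cholesterol is also taken up from lipoproteins and from the tubular filtrate, and freed from its esters in lysosomes.

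All mice were male C57BL/6 of wild type genotype, and the labels give no age. The normal group received no cisplatin and no vesicles. Cisplatin, a platinum chemotherapy agent toxic to tubule cells, was injected into the peritoneum of all remaining mice at 9 mg/kg weekly for 5 cycles. They then had 5 intravenous doses 3 days apart of PBS (the PBS group), of 200 µg iMSC-EVs (the EV200 group) or of 400 µg iMSC-EVs (the EV400 group). Kidneys of these groups were taken 3 days after the last dose, and each of the 4 groups had 3 libraries. Normal mice had neither cisplatin nor the injections, so what the drug and the injections each did cannot be told apart. The labels call the libraries biological replicates of 1 batch without naming the mice, so p-values measure only the spread between these samples.

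Libraries held 46.6 to 62.1 M counted reads, and the lowest count of any gene of the set was 715, for Fdps. Normal libraries lay close together in a principal component analysis, from -47.9 to -39 on the first component, which held 43.4% of the variance. The PBS libraries spread from 15.4 to 83.4, EV200 from -18.7 to 60.5 and EV400 from -52.1 to 7.93. PBS replicate 2, EV200 replicate 3 and EV400 replicate 3 stood farthest from the other libraries of their groups. The tissue label was checked against proximal tubule markers, whose summed level was 8629 to 15736 CPM (read counts on a per-million scale, here always with TMM factors) in all 12 libraries. Markers of the adrenal cortex, a steroid-making neighbour of the kidney that uses much cholesterol, summed to 2.42 to 4.61 CPM, with Cyp11b2 and Nr5a1 at 0 counts in every library.

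Promoter windows from RefSeq on GRCm38.p6, from 250 bases before to 50 bases after the annotated start, were given for 5 of the 8 genes (Hmgcs1, Idi1, Cyp51, Lss and Insig1). Windows for Sqle, Fdps and Fdft1 were not used here. The windows of Hmgcs1, the gene that passed the test, and of Idi1 and Insig1, an enzyme and the feedback regulator that did not, are shown 5′ to 3′ on the plus strand. Capitals mark matches on either strand to TCACNCCAC, a form of the sterol regulatory element that SREBP binds, and to CCAAT, the box bound by NF-Y, and no marked match overlaps another.
Hmgcs1: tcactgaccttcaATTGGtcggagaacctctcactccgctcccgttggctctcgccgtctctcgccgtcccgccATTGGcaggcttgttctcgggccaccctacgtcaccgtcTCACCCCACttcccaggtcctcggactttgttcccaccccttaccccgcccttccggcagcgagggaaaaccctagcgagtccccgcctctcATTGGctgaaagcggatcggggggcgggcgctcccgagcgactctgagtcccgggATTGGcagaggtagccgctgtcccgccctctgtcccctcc
Idi1: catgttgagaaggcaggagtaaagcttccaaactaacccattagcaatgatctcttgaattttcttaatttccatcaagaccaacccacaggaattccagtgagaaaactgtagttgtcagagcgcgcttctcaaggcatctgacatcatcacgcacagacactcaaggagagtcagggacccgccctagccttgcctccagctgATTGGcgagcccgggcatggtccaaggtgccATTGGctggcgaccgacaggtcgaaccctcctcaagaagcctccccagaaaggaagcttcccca
Insig1: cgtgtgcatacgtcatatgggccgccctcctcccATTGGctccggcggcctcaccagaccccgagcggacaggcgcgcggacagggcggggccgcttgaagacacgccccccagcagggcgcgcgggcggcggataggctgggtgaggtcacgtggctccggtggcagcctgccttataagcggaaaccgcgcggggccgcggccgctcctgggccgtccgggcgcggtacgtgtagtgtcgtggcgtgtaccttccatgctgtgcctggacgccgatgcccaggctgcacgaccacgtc
The Hmgcs1 window is chr13:119690101-119690400, that of Idi1 is chr13:8885356-8885655 and that of Insig1 is chr5:28071162-28071461. Among the 5 windows, TCACNCCAC was found in 1, that of Hmgcs1, 137 bases before its start, and in 1.24% of the 32851 windows of all genes. CCAAT was found in 5 of 5 and in 37.4% of all windows, with 4 matches for Hmgcs1, 2 for Idi1 and 1 for Insig1, all of them read on the minus strand as ATTGG. The Sp1 box, GGGCGG, was also found in 5 of 5, against 35.7% of all windows. A match is a run of letters and not a measured binding site. Other forms of the sterol regulatory element were not searched, so a window without TCACNCCAC is not shown to lack the element.

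The genes differed widely in level. Per transcript length, as deposited TPM (transcript counts on a per-million scale), Hmgcs1 was the highest in normal kidney at 319.7 TPM on average. Cyp51 followed at 66.0 TPM (64.2 to 69.3) and Idi1 at 61.1 TPM (58.1 to 65.0), and their ranges overlapped. Sqle had 38.2 TPM, Fdps 20.2 TPM, Insig1 17.8 TPM, Fdft1 8.53 TPM and Lss 5.72 TPM. Apart from Cyp51 and Idi1, no neighbours in this order overlapped between the 3 normal libraries, but the Fdft1 values were uneven (6.61 to 11.3 TPM).

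**Figure D1:**
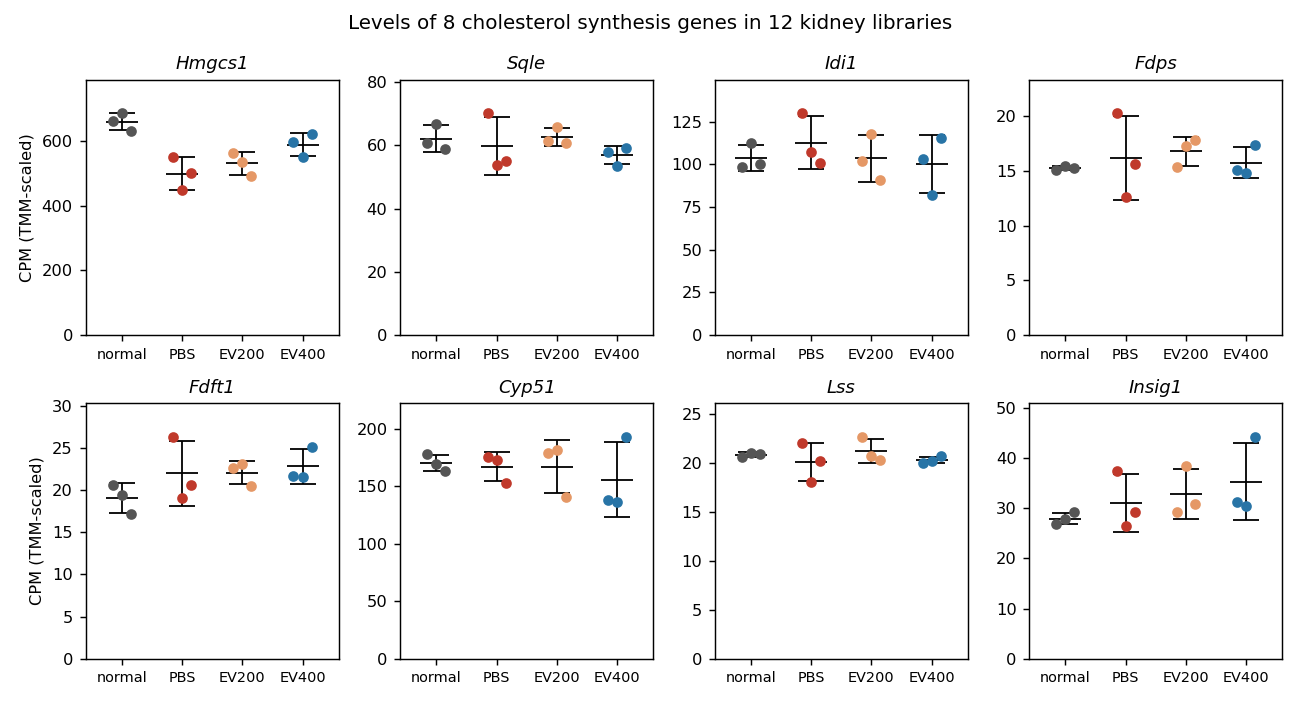
Level of each of the 8 genes in CPM (vertical axes, each starting at 0 with its own range) in the 12 libraries, with points for libraries and bars for the group mean and SD (n = 3). Only for Hmgcs1 do the 3 PBS libraries (447.8 to 550.9 CPM) all lie below the 3 normal libraries (632.4 to 687.3 CPM).

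Hmgcs1 encodes the cytosolic HMG-CoA synthase, which joins acetyl-CoA and acetoacetyl-CoA into HMG-CoA (gene ID 208715, chromosome 13, 119690351 to 119708260 on GRCm38.p6). It stood at 663.3, 687.3 and 632.4 CPM in the normal libraries, at 550.9, 447.8 and 501.8 CPM in PBS, at 564.7, 536.4 and 492.6 CPM in EV200 and at 597.6, 550.3 and 620.9 CPM in EV400. All 9 libraries of cisplatin-treated mice lay below all 3 normal ones, PBS had the lowest mean, and the lowest EV400 library, at 550.3 CPM, overlapped the highest PBS library, at 550.9 CPM. Against normal kidney, Hmgcs1 fell in PBS by 0.40 on the log2 scale (SE 0.10, 95% interval -0.61 to -0.19), a ratio of 0.757, with an adjusted p of 0.0481 in the edgeR quasi-likelihood test with Benjamini-Hochberg adjustment. Of all genes tested, 2.74% were called in this comparison, 1.84% higher and 0.902% lower, and 20% had all PBS libraries below all normal ones (20.3% above, 40.3% in either direction). In bulk tissue, fewer cells of a type and less RNA per cell cannot be told apart. The summed proximal tubule markers were 15527 to 15736 CPM in normal libraries and 8629 to 12639 CPM in PBS. All 9 of these genes had lower values in PBS. EdgeR called 1 of them lower, DESeq2 6, beside 2760 of 28437 genes, and limma-voom 9, beside 6164 of 18730. The part of these markers in the Hmgcs1 difference was not tested. The call lies close to the threshold: without PBS replicate 2 the change was -0.32 and the adjusted p 0.147, and leaving out any 1 of the normal libraries gave an adjusted p of 0.139 to 0.169. It was also lost without PBS replicate 3 (0.0822), EV200 replicate 2 (0.0632), EV400 replicate 1 (0.0758) or EV400 replicate 2 (0.0635), which enter the shared fit, and with no filter on low counts (0.0606).

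After vesicles, Hmgcs1 did not pass the edgeR test against PBS. Its change from PBS was 0.09 in EV200 (SE 0.10, interval -0.12 to 0.29, adjusted p = 0.749) and 0.24 in EV400 (SE 0.10, interval 0.03 to 0.45, unadjusted p = 0.0286, adjusted p = 0.184), both by edgeR. Limma-voom with quality weights called the EV400 difference, at 0.22 and an adjusted p of 0.0273. Its weights for replicates 1, 2 and 3 were 0.666, 0.163 and 3.47 in PBS and 0.648, 2.97 and 0.283 in EV200. In EV400 they were 3.38, 0.815 and 0.344, so in each of these groups its values lean on 1 library. The same weights enter all its calls. Between the doses, Hmgcs1 was 0.15 higher in EV400 (interval -0.06 to 0.36, adjusted p = 0.804 by edgeR). Against normal, it was -0.32 in EV200 (interval -0.52 to -0.11, adjusted p = 0.212) and -0.16 in EV400 (interval -0.37 to 0.04, adjusted p = 0.754), and neither passed the edgeR test. DESeq2 called the EV200 difference from normal at -0.30 with an adjusted p of 0.0412, and limma-voom called it at -0.30 with an adjusted p of 0.0109. The comparisons with PBS and with normal share those libraries. In deposited TPM the means were 319.7 for normal, 276.7 ± 17.7 (SD, n = 3) for PBS, 276.7 ± 12.1 for EV200 and 280.1 ± 20.1 for EV400. On that scale the difference between EV400 and PBS was within the SD of either group, while the median log2 ratio of EV400 to PBS over all genes tested was -0.24. The PBS libraries (260.2 to 295.3 TPM) again all lay below the normal ones (311.2 to 325.1 TPM).

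The enzymes that carry mevalonate units to squalene did not pass the test between any groups. Idi1, the isopentenyl diphosphate isomerase (chromosome 13, 8885606 to 8892396), had 98.2, 112.7 and 100.1 CPM in normal kidneys, 130, 107 and 100.7 CPM in PBS, 101.8, 117.9 and 90.8 CPM in EV200 and 103.2, 82.1 and 115.4 CPM in EV400. All 4 groups overlapped in CPM, and the difference of PBS from normal was 0.12 (SE 0.14, edgeR adjusted p = 0.595). In deposited TPM, by contrast, the PBS libraries (66.96 to 84.75 TPM) all lay above the normal ones (58.1 to 65.0 TPM). Fdps, which makes farnesyl diphosphate (chromosome 3, 89093588 to 89101967), was tightly grouped in normal kidneys at 15.1, 15.4 and 15.3 CPM. In PBS it ranged from 12.6 to 20.3 CPM, on both sides of normal, with a difference of 0.08 (SE 0.14, adjusted p = 0.74). Its coefficient of variation was 1.04% over the normal and 23.9% over the PBS libraries, a spread over 3 libraries each that was not tested. Fdps shares 26.7% of its exon length with Gm43738 on the same strand, which no strand setting can separate, so its count is uncertain to that extent.

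Fdft1, squalene synthase, which commits farnesyl diphosphate to sterols (chromosome 14, 63145150 to 63181687), had 20.6, 19.4 and 17.2 CPM in normal, 26.3, 19.1 and 20.6 CPM in PBS, 22.7, 23.0 and 20.5 CPM in EV200 and 21.7, 21.6 and 25.2 CPM in EV400. In CPM only the EV400 libraries all lay above all normal ones, beside 18.8% of all genes without overlap in either direction. The difference was 0.26 with an edgeR adjusted p of 0.722, and 0.20 (SE 0.12, adjusted p = 0.277) for PBS against normal. In deposited TPM the EV400 libraries (11.17 to 11.71 TPM) overlapped the normal ones (6.61 to 11.27 TPM). Fdft1 shares 18.3% of its exon length with Ctsb on the opposite strand, a lysosomal protease gene at 627.2 CPM in normal kidney, and the strand setting of the counter is not given in the sources used here, so the Fdft1 count is uncertain to that extent. Ctsb had 599.2 CPM in PBS, a difference of -0.07 (adjusted p = 0.616). Of Hmgcs1, 12.1% of the exon length overlaps the antisense gene Gm48342.

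The enzymes of the sterol branch did not pass the test in any comparison. Sqle, squalene monooxygenase (chromosome 15, 59315092 to 59331193), had 62.2 ± 4.15 CPM in normal, 59.7 ± 9.14 in PBS, 62.6 ± 2.78 in EV200 and 56.9 ± 2.96 in EV400 (SD, n = 3). The EV400 libraries, at 58.0, 53.6 and 59.2 CPM, all lay below the EV200 libraries, at 61.3, 65.8 and 60.7 CPM, with a difference of -0.14 and an edgeR adjusted p of 0.819. Lss, lanosterol synthase (chromosome 10, 76531565 to 76557139), had 20.9 ± 0.248 CPM in normal, 20.1 ± 1.98 in PBS, 21.3 ± 1.26 in EV200 and 20.4 ± 0.344 in EV400. Its difference of PBS from normal was -0.05 (SE 0.08, adjusted p = 0.702). Cyp51, the sterol demethylase (chromosome 5, 4080674 to 4104697), had 170.0 ± 7.24, 167.0 ± 12.3, 166.8 ± 22.9 and 155.7 ± 32.3 CPM in the same order. The wide EV400 spread of Cyp51 came from replicate 3, at 192.9 CPM against 138.2 and 136.0 CPM in the other libraries.

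Insig1 encodes the protein that retains SCAP and is itself a target of SREBP2 (chromosome 5, 28071412 to 28078662). It had 26.9, 27.8 and 29.2 CPM in normal, 37.5, 26.4 and 29.3 CPM in PBS, 29.2, 38.4 and 30.8 CPM in EV200 and 31.3, 30.4 and 44.2 CPM in EV400. The highest library was replicate 1 in PBS, 2 in EV200 and 3 in EV400, and the EV400 libraries all lay above the normal ones. The differences were 0.15 for PBS and 0.34 for EV400 against normal (edgeR adjusted p of 0.56 and 0.731) and 0.19 (SE 0.16) for EV400 against PBS. In deposited TPM, the PBS libraries (20.2 to 26.45 TPM) all lay above the normal ones (17.2 to 18.9 TPM).

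**Figure D2:**
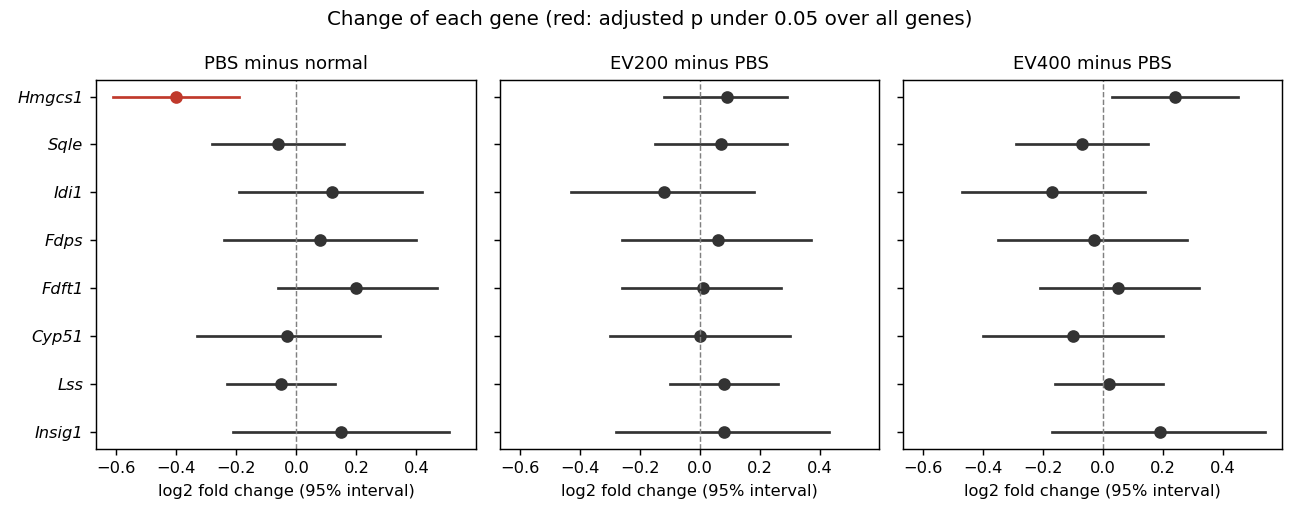
Log2 fold changes of the 8 genes (horizontal axis) in PBS minus normal, EV200 minus PBS and EV400 minus PBS, with 95% intervals as bars and red for an edgeR adjusted p under 0.05. Hmgcs1 in PBS against normal, at -0.40, is the 1 red point.

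Counted over the set, 1 of 8 genes was called lower and 0 higher in PBS against normal, beside 2.74% of all genes, and the median change was 0.03. In EV200 against PBS, 0 of 8 were called, beside 0.016% of all genes, and the median was 0.06. An unadjusted p under 0.05 was found for 0 of 8, beside 6.9% of all genes. DESeq2 also called 0, beside 39 of 28437 genes, and limma-voom 0, beside 1649 of 18730. No gene of the set was without overlap between these groups, beside 10.5% of all genes. In EV400 against PBS, 0 of 8 were called, 1 had an unadjusted p under 0.05 and the median was -0.01, beside 0.0801% of genes called and 23.5% with an unadjusted p under 0.05. Limma-voom called 1 gene of the set, Hmgcs1, beside 2731 of 18730 genes, and DESeq2 called 0, beside 882 of 28437. In this comparison 0 of 8 genes were without overlap, beside 26% of all genes. For the 7 genes other than Hmgcs1, all 95% intervals lay between -0.33 and 0.51 in PBS against normal, between -0.43 and 0.43 in EV200 against PBS and between -0.47 and 0.54 in EV400 against PBS. Between the doses 0 of 8 were called beside 0.00534% of all genes, in EV200 against normal 0 of 8 beside 0.0694%, and in EV400 against normal 0 of 8 beside 0%, by edgeR. Those 3 comparisons had 0, 1 and 0 genes of the set at an unadjusted p under 0.05, beside 6.34%, 13.2% and 6.98% of all genes. They had 1, 1 and 3 genes of the set without overlap in either direction, beside 10.7%, 24.9% and 18.8%. DESeq2 and limma-voom each called 1, Hmgcs1, in EV200 against normal, beside 492 of 28437 and 1098 of 18730 genes. Between the doses and in EV400 against normal they called 0, beside 13 and 29 genes for DESeq2 and 145 and 1481 for limma-voom.

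The direction of small changes depended on the scaling. Under TMM, 4 of the 8 genes had positive and 4 negative changes in PBS against normal. In deposited TPM, 7 of 8 had a higher mean in PBS, with 2 of them, Idi1 and Insig1, above normal in every library, while Hmgcs1 alone was lower. The median log2 ratio of the TPM means over all genes tested was itself 0.20, and over the 8 genes 0.22. In EV400 against PBS, 1 of 8 had a higher mean in TPM, with a median of -0.23 beside -0.24 for all genes. Counts scaled by library totals without TMM factors, a scaling tried after the data were seen, gave 7 positive and 1 negative in PBS against normal (median 0.19, all genes 0.17), and 2 positive and 6 negative in EV400 against PBS (median -0.15, all genes -0.17).

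Within a group, the same libraries tended to be high or low in CPM for most of the 8 genes. PBS replicate 1 was the highest PBS library for 8 of 8 genes and replicate 2 the lowest for 6. EV400 replicate 3 was the highest of its group for 8 of 8, and replicate 2 the lowest for 7. EV200 replicate 3 was the lowest of its group for 6. In deposited TPM PBS replicate 1 stayed the highest of its group for every gene of the set but Cyp51. Cyp51 had 75.2 TPM in that library and 80.58 TPM in PBS replicate 2. The order in EV200 and EV400 was not kept in TPM. On that scale EV400 replicate 3 was the lowest of its group for Hmgcs1 (257.9 TPM), Sqle (31.19), Fdps (19.79) and Lss (4.743). It was the highest for Cyp51 (64.25) and Insig1 (24.22) and between the others for Idi1 and Fdft1. In TPM EV200 replicate 3 was the lowest for Idi1 (61.09) and Cyp51 (62.21) and the highest for Sqle (42.6), Fdps (27.26) and Fdft1 (12.97). The median correlation over the 28 pairs of genes was 0.425 over the 12 libraries and 0.685 after group means were removed, for values that share libraries and scaling. Hmgcs1 followed the others least across all libraries (median r of 0.12) and about as closely as the rest once group means were removed (0.72).

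**Figure D3:**
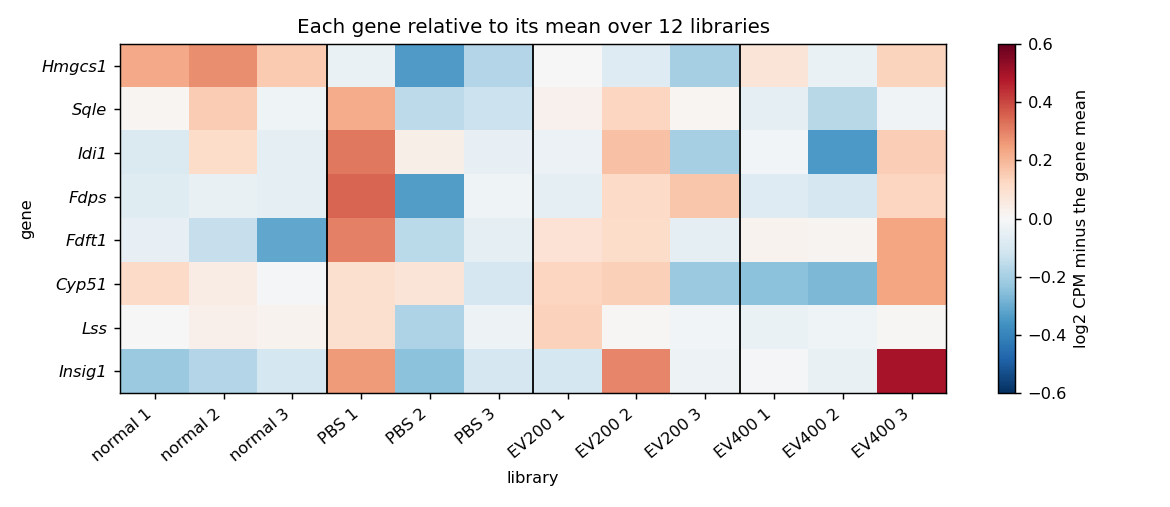
Heat map of the 8 genes (rows) in the 12 libraries (columns), coloured by log2 CPM minus the gene's mean from -0.6 to 0.6. PBS replicate 1 and EV400 replicate 3 are the highest of their groups for 8 of 8 genes in CPM. In deposited TPM PBS replicate 1 stays the highest of its group for every gene but Cyp51, while the order in EV400 differs.

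Cell type markers also differed between libraries of a group. PBS replicate 1 had the lowest summed macrophage markers of its group, 347.6 CPM against 695.8 and 441.8 CPM, and the lowest fibroblast markers, 219.9 CPM against 631.3 and 374.3 CPM. EV400 replicate 3 had 135.0 CPM of macrophage markers against 289.0 and 295.8 CPM in the other EV400 libraries, and 13089 CPM of proximal tubule markers against 13171 and 13928 CPM. EV200 replicate 3, low in CPM for most genes of the set, had 608.5 CPM of macrophage markers against 201.2 and 227.2 CPM. Its proximal tubule markers were at 10101 CPM against 14909 and 13606 CPM. Macrophage markers were 139.3 to 164.6 CPM in normal kidney, and edgeR called 4 of 9 higher in PBS, beside 2.74% of all genes. DESeq2 called 8, beside 2760 of 28437 genes, and limma-voom 8, beside 6164 of 18730. EV400 replicate 3 also had the lowest TMM factor, 0.891. The part of any of these in the shared variation was not tested.

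Over 11177 genes with a mean of at least 5 CPM, Mvk, mevalonate kinase of the same pathway, followed the mean profile of the 8 genes most closely, with r = 0.91 over 12 libraries and 0.91 after group means were removed. Among the next most alike were Tmem19, Nt5m, Dctn5, BC003965, Tada2b, Rce1, Med8 and Wrap73, down to r = 0.85. The median r of all genes compared was 0.13, and 0.385% exceeded 0.8. Mvk itself had 9.53 CPM in normal and 9.12 CPM in PBS (-0.07, edgeR adjusted p = 0.832).

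The 15 other genes of cholesterol synthesis were lower in PBS than normal for 12 and higher for 3, with a median of -0.21 beside a median of 0 for all genes, but 0 of 15 were called by edgeR, beside 2.74% of all genes. DESeq2 called 3 of them lower, beside 2760 of 28437 genes, and limma-voom 7 lower and 1 higher, beside 6164 of 18730. Of them 5 had an unadjusted p under 0.05, beside 29.8% of all genes. In deposited TPM 8 of 15 had a higher mean in PBS, beside 13716 of 18730 genes (median log2 ratio 0, all genes 0.20). Without TMM factors 6 were positive and 9 negative (median -0.04, all genes 0.17). Acat2, which makes acetoacetyl-CoA for Hmgcs1, had 114.1 CPM in normal, 85.3 in PBS and 108.3 in EV400, with differences of -0.42 (SE 0.13, adjusted p = 0.0685) and 0.35 (adjusted p = 0.169 against PBS). Ebp, a sterol isomerase, had 64.6, 48.4 and 63.7 CPM (-0.42, adjusted p = 0.0832, and 0.40, adjusted p = 0.161). The sterol reductase Lbr had 48.9 CPM in normal and 37.97 in PBS (-0.37, adjusted p = 0.063), and the desaturase Sc5d had 71.2 and 58.7 (-0.28, adjusted p = 0.104). In EV400 against PBS 12 of 15 were positive, with a median of 0.14, and 3 had an unadjusted p under 0.05, beside 23.5% of all genes. EdgeR called 0, beside 0.0801% of all genes, and DESeq2 0, beside 882 of 28437. Limma-voom called 1, lower, beside 2731 of 18730. In TPM 6 of 15 had a higher mean in EV400, beside 4132 of 18730 genes (median log2 ratio -0.07, all genes -0.24). Without TMM factors 9 were positive (median 0.01, all genes -0.17).

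Of 11 genes of cholesterol uptake and release, edgeR called 1, Lipa, lower in PBS than in normal kidney, beside 2.74% of all genes. DESeq2 called 3 lower, beside 2760 of 28437 genes, and limma-voom 2 higher and 4 lower, beside 6164 of 18730. In EV400 against PBS edgeR called 0 of these 11, where it called 0.0801% of the genes tested. Before adjustment its p was under 0.05 for 7 of them, against 23.5% of the genes tested. DESeq2 called 3 higher and 1 lower (882 of 28437 genes in total), and limma-voom 4 higher and 4 lower (2731 of 18730 in total). Lipa is the lysosomal acid lipase that frees cholesterol from esters. It had 395.2, 393.3 and 392.9 CPM in normal, 269.0, 261.5 and 324.5 in PBS, 331.1, 364.2 and 309.5 in EV200 and 393.9, 379.1 and 402.2 in EV400. In CPM all PBS libraries were below all normal libraries, beside 20% of all genes. All EV400 libraries were above all PBS libraries, beside 26% of all genes without overlap in either direction. In deposited TPM the PBS libraries (169.3 to 208.3 TPM) again all lay below the normal ones (218.9 to 227.4 TPM). The EV400 libraries (196.3 to 230.5 TPM) overlapped PBS on that scale. Lipa fell by 0.47 on the log2 scale in PBS (SE 0.09, edgeR adjusted p = 0.0428), and its value was 0.46 higher in EV400 than in PBS (SE 0.09, adjusted p = 0.0887), which did not pass the edgeR test. DESeq2 called that difference at 0.46 (adjusted p = 0.000337) and limma-voom at 0.33 (adjusted p = 0.0141). The call in PBS was lost without any 1 normal library (adjusted p of 0.136 to 0.158) and without PBS replicate 2 (0.119), EV200 replicate 2 (0.0525), EV400 replicate 1 (0.0674) or EV400 replicate 2 (0.0621). Lrp2, the megalin receptor of the proximal tubule, had 3296 CPM in normal and 2328 in PBS (-0.50, adjusted p = 0.0642).

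Of 10 genes that regulate SREBP, edgeR called 0 in PBS against normal, beside 2.74% of all genes. Of the 10, 2 were positive and 8 negative (median -0.16), and 4 had an unadjusted p under 0.05, beside 29.8% of all genes. In deposited TPM 7 of 10 had a higher mean in PBS, beside 13716 of 18730 genes (median log2 ratio 0.02, all genes 0.20). Without TMM factors 5 were positive and 5 negative (median 0.01, all genes 0.17). DESeq2 called 0, beside 2760 of 28437 genes, and limma-voom 3, all lower, beside 6164 of 18730. In EV400 against PBS edgeR called 0, beside 0.0801% of all genes. DESeq2 called 1 higher in EV400, beside 882 of 28437 genes, and limma-voom 2 higher, beside 2731 of 18730. Insig2, a relative of Insig1 that also retains SCAP, had 44.9 CPM in normal, 40.5 in PBS and 47.1 in EV400. The liver X receptor genes Nr1h2 and Nr1h3, sensors of oxysterols, differed by -0.24 and -0.33 in PBS (adjusted p of 0.151 and 0.152). Srebf2, which encodes SREBP2, had 77.7 CPM in normal and 76.4 CPM in PBS (-0.02).

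Of 12 genes of fatty acid synthesis, edgeR called 2 in PBS against normal, both higher, beside 2.74% of all genes. DESeq2 called 3 higher and 1 lower, beside 2760 of 28437 genes, and limma-voom 6 higher and 3 lower, beside 6164 of 18730. The desaturase Scd2 had 76.5, 72.7 and 80.5 CPM in normal and 153.2, 112.6 and 113.4 CPM in PBS, a rise of 0.72 (SE 0.13, edgeR adjusted p = 0.0379). The elongase Elovl6 had 12.8, 14.0 and 13.8 CPM in normal and 17.2, 24.3 and 23.9 CPM in PBS, a rise of 0.69 (SE 0.15, adjusted p = 0.045). Their differences of EV400 from PBS were -0.55 and -0.49 (adjusted p of 0.121 and 0.149), which did not pass the edgeR test. DESeq2 called both (adjusted p of 0.00515 for Scd2 and 0.0478 for Elovl6), as did limma-voom (0.0225 and 0.0118). Adipocyte markers summed to 124.4 CPM in PBS replicate 3, against 30.5 and 24.4 CPM in the other PBS libraries and at most 31.5 CPM in normal kidney, and their part in the fatty acid genes was not tested. The Scd2 call was lost without PBS replicate 2 (adjusted p = 0.0859) and the Elovl6 call without PBS replicate 2 (0.144) or 3 (0.0782), and both were lost without any 1 normal library (0.131 to 0.158). Without EV200 replicate 2, EV400 replicate 1 or EV400 replicate 2 the adjusted p was 0.052 to 0.0564 for Scd2 and 0.0547 to 0.0676 for Elovl6.

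**Figure D4:**
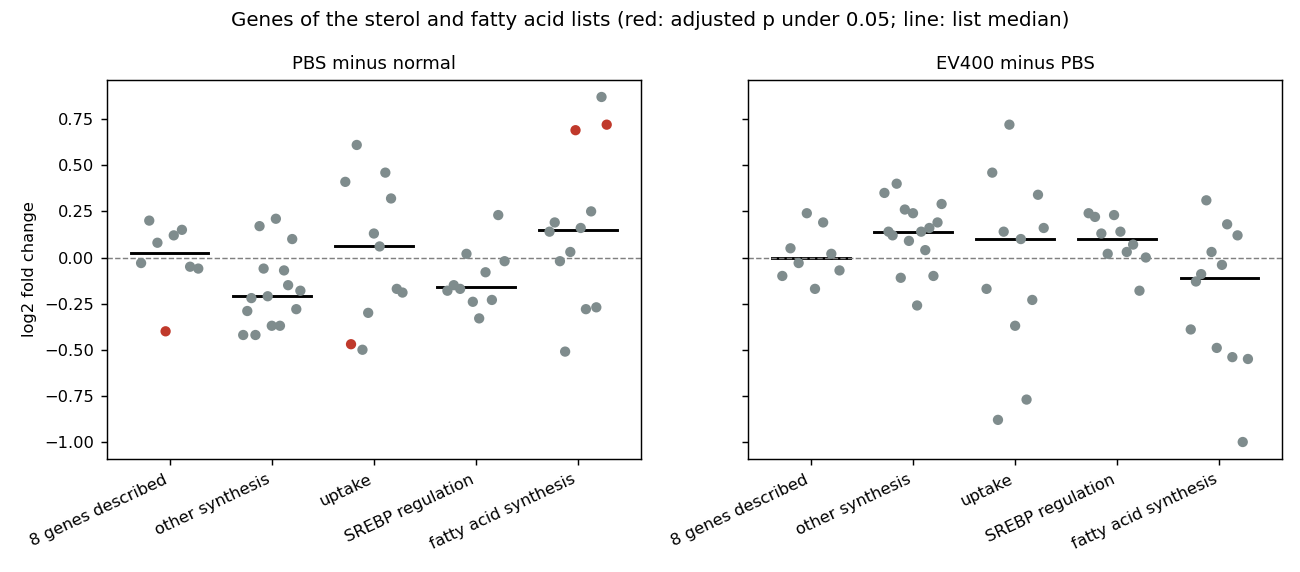
Log2 fold changes of the genes of each list (points) in PBS against normal and EV400 against PBS, with the list median as a line and red for an edgeR adjusted p under 0.05. The other synthesis genes have a median of -0.21 in PBS against normal and 0.14 in EV400 against PBS on this TMM scale. In deposited TPM the medians of the log2 ratios are 0 and -0.07, beside 0.20 and -0.24 for all genes tested.

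Clock genes and injury genes also differed between the groups, but not in the same order of libraries. EV200 replicate 3 had the highest summed injury genes, 1854.6 CPM, while its Dbp level, 87.5 CPM, lay among the normal ones (84.4 to 90.2 CPM). PBS replicate 1 had the lowest Dbp level, 15.1 CPM, and the lowest injury sum of its group, 1129.7 CPM. In PBS against normal, edgeR called 7 of 14 clock genes, beside 2.74% of all genes. Arntl rose (1.80) and Per2, Per3, Cry2, Dbp, Tef and Ciart fell (log2 changes of -0.93, -0.88, -0.73, -1.48, -0.87 and -1.97). DESeq2 and limma-voom each called 2 higher and 8 lower, beside 2760 of 28437 and 6164 of 18730 genes. In EV400 against PBS, Per3, Cry2 and Ciart rose and Arntl and Npas2 fell, beside 0.0801% of all genes called. The labels give no hour of collection, cholesterol synthesis genes are known to cycle over the day in liver, and the part of time of day in the Hmgcs1 and Lipa values was not tested. Of 8 tubular injury genes, edgeR called Lcn2, Sox9, Spp1, Clu and Krt7 higher in PBS, beside 2.74% of all genes. Their log2 changes were 4.52, 3.19, 1.47, 0.81 and 0.51. DESeq2 called 7, beside 2760 of 28437 genes, and limma-voom 8, beside 6164 of 18730.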

How the data were processed

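Total RNA from kidney was sequenced from stranded poly(A) libraries, per the labels' protocols. The submitters' processing notes list HISAT2 2.1.0, StringTie 2.1.3b, Trimmomatic 0.38 and FastQC 0.11.7 beside the builds mm10 and GRCm38. Which program counted reads, whether it used strand, and which gene models it read are not given in the sources used. In a single table the authors deposited whole-number read counts per gene and, beside them, TPM values. A further 12 per-sample columns (FPKM) were not used. The deposited counts were tested as they stand, and the deposited TPM served to describe levels, with no test.

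Counts were fitted in R 4.3.3 with edgeR 4.0.16 (filterByExpr by group, TMM, quasi-likelihood F test, all 12 libraries in 1 fit with 8 residual degrees of freedom), with Benjamini-Hochberg adjustment over 18730 genes and calls at an adjusted p under 0.05. SE is the absolute log2 change over the square root of F. DESeq2 1.42.0, limma 3.58.1 (voom with quality weights), other filters and scalings, a replicate block and leaving out each library were alternatives. The test was tried on simulated data. The 8 genes and all lists were chosen with earlier results of these data known. From each list, every called gene, or else up to 4 with the smallest p, is named, as are those of the 10 genes most like the set. Some genes that this rule names are not reported here. Srebf2, Lrp2, Mvk's test and Ctsb were added after their values were seen. Gene positions and promoters are from RefSeq GRCm38.p6 (45679 of 45777 IDs matched), and exon overlaps from GENCODE vM21.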

Additional observations from a re-analysis of the deposited data

How the results depend on the processing

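The Hmgcs1 decrease in PBS kept its direction in every alternative run. It stayed called with DESeq2 size factors (adjusted p = 0.0497), a stricter filter (0.0416), DESeq2 (0.00122), limma-voom (0.000891) and only the groups compared (0.0484). It was lost, leaving 0 of 8 genes called, with no filter (-0.39, 0.0606), with the replicate block (-0.41, 0.0896) and with library totals without TMM factors, an alternative chosen after seeing the data (-0.24, 0.0563), where the median of all genes was 0.17. Leaving out 1 library at a time gave -0.48 to -0.32, 0 to 1 genes called, and kept the call in 4 of 12 cases. With the replicate block the calls of Lipa (0.0867), Scd2 (0.0787) and Elovl6 (0.0786) were lost as well, and without TMM factors that of Lipa (0.0541). The cause was not tested.

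In EV200 against normal DESeq2 and limma-voom each called 1 gene of the set, beside 492 of 28437 and 1098 of 18730 genes. In EV400 against PBS limma-voom called 1, beside 2731 of 18730. Deviations of same-numbered libraries from their group means had correlations from -0.39 to 0.34. With 3 libraries per group, these cannot decide whether the numbers pair the samples. Without TMM factors Hmgcs1 was 0.09 higher in EV400 than PBS, where the median of all genes was -0.17, and 0.26 higher relative to that median.

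Values near 0 changed sign. With limma-voom, Idi1 in EV200 against PBS was 0.11, and in EV400 against PBS Sqle was 0.01 and Lss -0.02. Without TMM factors, in PBS against normal Sqle was 0.11, Cyp51 0.14, Lss 0.11 and Insig2 0.02, Fdft1 was -0.06 in EV200 and -0.09 in EV400 against PBS, and Lss -0.13 in EV400. Leaving out 1 library, PBS against normal ranged from -0.19 to 0.02 for Sqle, -0.12 to 0.24 for Fdps, -0.06 to 0.03 for Cyp51, -0.13 to 0.03 for Lss and -0.01 to 0.27 for Insig1. In EV200 against PBS the ranges were -0.09 to 0.25 for Fdps, -0.08 to 0.16 for Fdft1 and -0.04 to 0.24 for Insig1. In EV400 against PBS they were -0.13 to 0.07 for Sqle, -0.18 to 0.16 for Fdps, -0.04 to 0.20 for Fdft1, -0.05 to 0.09 for Lss and -0.01 to 0.32 for Nr1h3.

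Over all genes, 514 were called in PBS against normal, 2760 by DESeq2, 6164 by limma-voom, 1449 in only the groups compared, 819 with the stricter filter, 299 with no filter and 0 with the replicate block. Leaving out any 1 normal library left 0. Leaving out PBS replicate 1, 2 or 3 gave 2277, 1 and 79, EV200 replicate 1, 2 or 3 gave 903, 80 and 2405, and EV400 replicate 1, 2 or 3 gave 31, 6 and 848.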

Other observations

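On the deposited TPM scale, EV400 replicate 3 had the lowest Hmgcs1 value of its group, 257.9 TPM, while in TMM-scaled CPM it had the highest, 620.9 CPM.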
